A study of Solanum lycopersicum with 2 samples.

Results

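The tomato leaf gene models described here had 3' end reads less concentrated in the highest peak in the heat-stress library than in control. A model belongs to the group when the highest peak of reads held a share of its reads that was at least 10 percentage points lower in the heat-stress library than in the control library. Both libraries had to hold at least 100 reads of the model, and the peak could not exceed the model's reads in either. Of 24915 models listed in either library 8945 passed these filters, and 110 of them (1.23%) had the lower share. The opposite difference, a share at least 10 points higher in the heat-stress library, was found in 56 models (0.626%). The 110 models were thus chosen by the measured shares, so their shares, and everything computed from the same reads, are given as a description.

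The 2 libraries, 1 per group, came from leaves of Solanum lycopersicum cv Moneymaker, a tomato cultivar. In the heat-stress group, plants 8 weeks old were brought from the glasshouse to a growth chamber with light of 120 μmol m-2 s-1, kept for 1 h at 39°C and left for 1.5 h at 24°C. In the control group, plants of the same age and cultivar were grown in the same glasshouse regime of 16 h days at 24°C and 8 h nights at 20°C, and the labels leave out whether they were also moved. Young leaves of different developmental stages were collected, and the number of plants behind a library is not stated there either. No value below has a replicate check, and no test between the conditions was possible. Mapped reads numbered 13857252 in the heat-stress library and 11534512 in the control library. The files give identifiers without gene names. Since 0 identifiers occur among the 41476 genes of the tomato reference table, no function was assigned and leaf markers were not checked.

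The 3' end of a messenger RNA is made by cleavage of the transcript at a polyadenylation site and addition of a poly-A tail. Many plant genes have more than 1 such site, and the choice between them sets the length of the 3' untranslated region and which regulatory sequences the RNA carries. Massive analysis of cDNA ends (MACE) captures poly-A RNA and reads only its end, per the labels' protocols the last 500 bp with 1 read per transcript. How the reads of 1 used 3' end spread over these 500 bp is not known here, so a low share need not mean several 3' ends. The files hold the height of the highest peak and the reads of the model, and no positions. A lower share therefore says that more of the model's reads lay outside its highest peak. It does not say where those reads lay, nor whether the highest peak was at the same position in both libraries.

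The median peak share of the 110 models was 39.0% in the heat-stress library and 52.1% in the control library. Over all 8945 models the medians were 24.7% and 25.4% in the same order of libraries. The control share is part of the rule, so its higher median in the 110 models is not a separate result. The 56 models with the opposite difference also had higher medians than all models, 55.5% and 40.9% in the same order. The median difference of the 110 models was -12.2 points, with a range from -26.3 to -10.1, and that of all models was -0.57 points. In the heat-stress library 25 of the 110 had at least 50% of their reads in the highest peak (4.66% of all models), and in the control library 59 did (5.05% of all models).

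**Figure D1:**
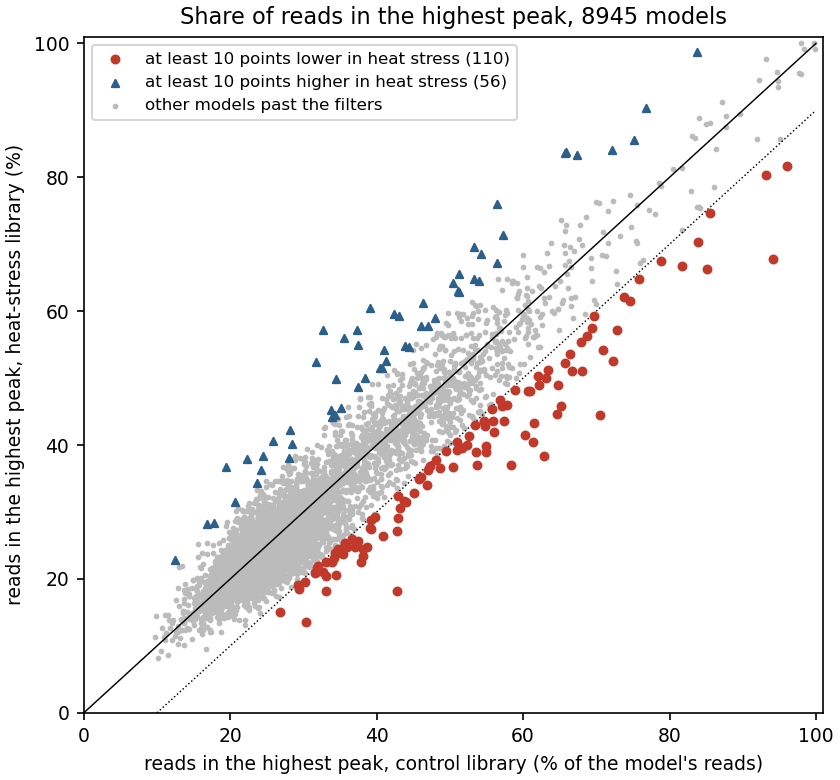
Share of each model's reads in its highest peak, in the heat-stress library (vertical axis, %) and the control library (horizontal axis, %), for 8945 models with 1 library per condition. The solid line marks equal shares and the dotted line a share 10 points lower in heat stress. The 110 models below the dotted line run from control shares of 26.8% to 96.1%, while most grey points crowd between 20 and 30%.

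The models are ranked here by the size of their difference. The model of rank 1 lies on chromosome 6, on the strand called wat in the files and taken here as Watson, or plus. In the heat-stress library 312 of its 460 reads were in the highest peak, and in the control library 241 of 256 were. Its shares were 67.8% in the heat-stress library (95% exact Clopper-Pearson interval 63.3 to 72.1) and 94.1% in the control library (90.5 to 96.7), a difference of -26.3 points with a 95% Newcombe interval of -31.3 to -20.9. Nearly all control reads of this model lay in 1 peak. In reads per 1000000 mapped reads (RPM), the highest peak was at 22.5 RPM in the heat-stress library and 20.9 RPM in the control library. Whether it was at the same position in both is unknown. The reads outside the highest peak differed more. Reads outside the peak stood at 10.7 RPM in the heat-stress library, 148 reads, and at 1.30 RPM in the control library, 15 reads, a ratio of 8.21 (95% exact interval 4.82 to 15.0).

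A second model of chromosome 6 on the Watson strand, of rank 29, had the same form at a higher level. Its highest peak held 882 of 1079 reads in the heat-stress library and 566 of 589 in the control library. The shares were 81.7% in the heat-stress library (79.3 to 84.0) and 96.1% in the control library (94.2 to 97.5), which is the highest control share of the group. Outside the peak there were 197 reads in the heat-stress library and 23 in the control library, or 14.2 RPM against 1.99 RPM, a ratio of 7.13 (4.62 to 11.5). The peak itself was 1.30 times as high in RPM (1.17 to 1.44). The same direction at smaller ratios was found for 2 further models. A Crick-strand model of chromosome 2 (rank 44) had 65 reads outside the peak in the heat-stress library and 16 in the control library. Its ratio of outside RPM was 3.38 (1.93 to 6.26). A Watson-strand model of chromosome 4 (rank 11) had 62 and 17 such reads, a ratio of 3.04 (1.75 to 5.54). In all of these the control library had few reads beyond the main peak. The models of ranks 11, 29 and 44 were chosen after their values were seen, because the ratio of their outside reads was among the highest.

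The model of rank 2, on the Crick strand of chromosome 7, had about equal levels in both libraries and a different division of them. Its level was 9.24 RPM in the heat-stress library (95% exact Poisson interval 7.71 to 11.0) and 9.71 RPM in the control library (8.00 to 11.7). The peak held 57 of 128 reads in the heat-stress library and 79 of 112 in the control library, shares of 44.5% and 70.5%. The peak was at 4.11 RPM in the heat-stress library and 6.85 RPM in the control library, and reads outside it were at 5.12 RPM and 2.86 RPM in the same order. It was the only 1 of the 110 in which the peak was at least 1.5-fold lower and the outside reads at least 1.5-fold higher, and 3 of all 8945 models (0.0335%) were of this kind.

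**Figure D2:**
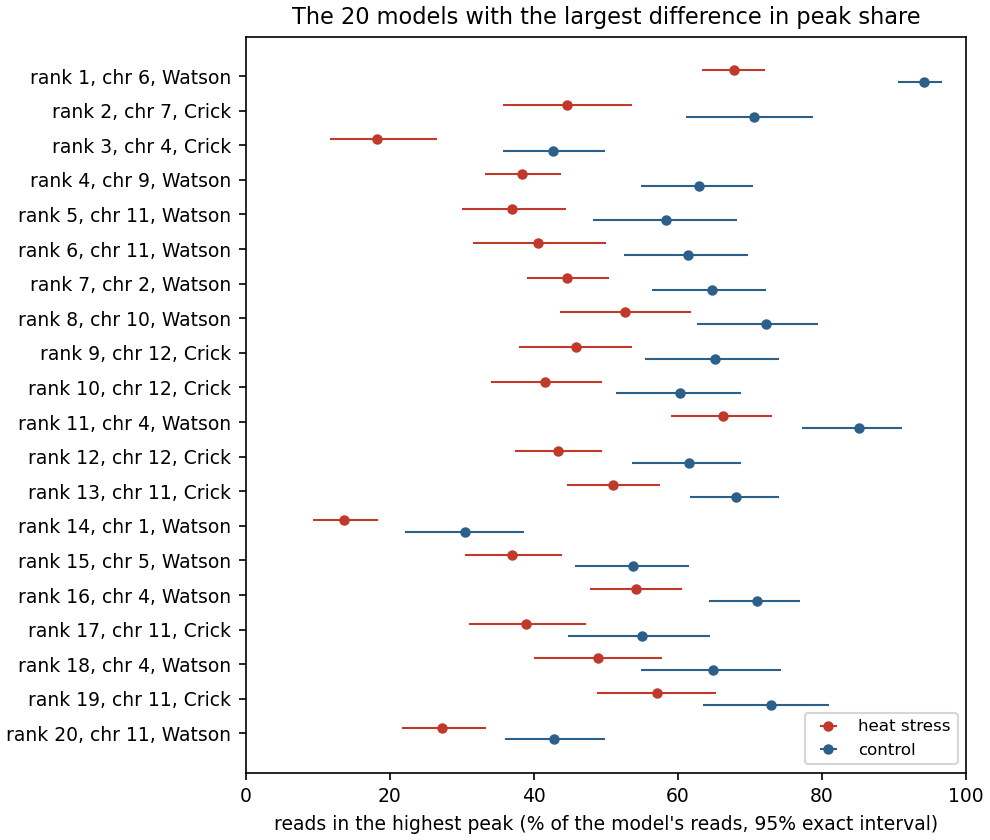
Share of reads in the highest peak (horizontal axis, %) for the 20 models with the largest difference, ranked from the top and named by chromosome and strand, with 95% exact intervals for counting error. Heat-stress values are red and drawn above the blue control values of the same model; the differences run from -26.3 points at rank 1 to -15.6 points at rank 20, and the ranks with few reads have the widest intervals.

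The reads of every model were split into those in the highest peak and those outside it, each in RPM, to describe which of them differed. At a threshold of 1.5-fold, 40 of the 110 models had more reads outside the peak while the peak stayed within 1.5-fold (4.49% of all 8945). In 30 the peak was lower and the outside reads stayed within 1.5-fold (3.06% of all). In 36 both stayed within 1.5-fold (74.3% of all), in 2 both were higher (7.86%), in 1 both were lower (5.46%), and the last is the model of rank 2. Counted whatever the outside reads did, the peak was lower in 32 (8.55% of all), higher in 2 (10.9%), and the outside reads were higher in 43 (12.4%). These classes divide the same reads that chose the models, so their excess over all models follows from the choice. Without a threshold, 74 models had a lower peak and more outside reads in the heat-stress library (12% of all models). In 73 of them the total level was also within 1.5-fold (11.95% of all models met all of these conditions). The median ratio of heat-stress to control was 0.793 for the peak and 1.41 for the outside reads, against 1.03 and 1.07 over all models.

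**Figure D3:**
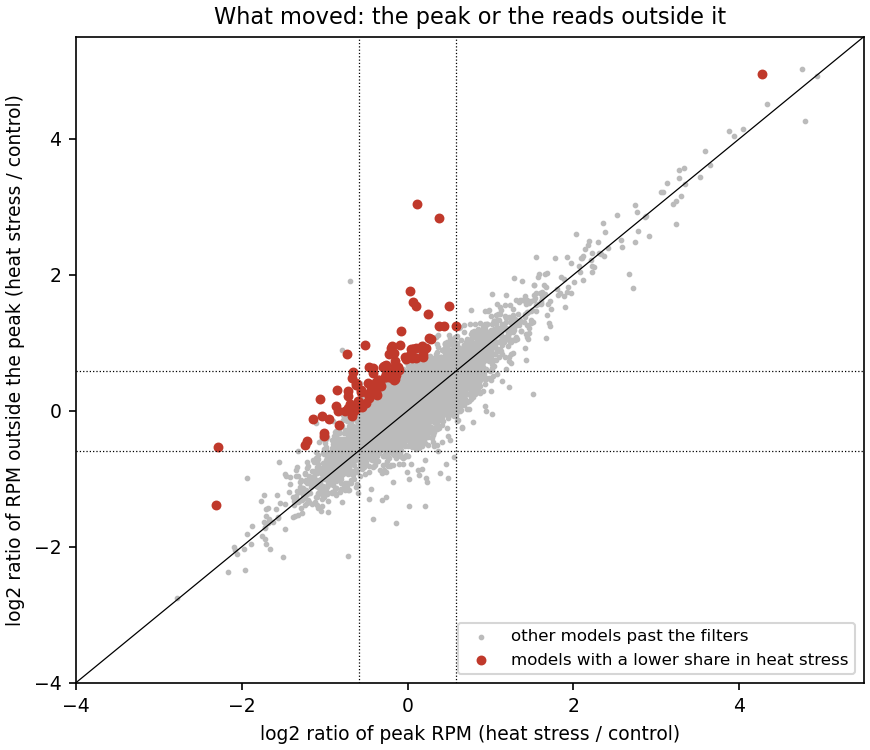
Log2 ratio (heat stress over control) of the RPM outside the highest peak, vertical axis, against that of the RPM in the peak, horizontal axis, for the 110 models (red) and the other models past the filters (grey). Dotted lines mark 1.5-fold and the solid line equal ratios; 3 of the 8945 models lie outside the plotted range or have no reads outside their peak. The red points form a band above the solid line, 40 of them above the upper dotted line and between the vertical dotted lines.

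The group in which the peak was lower and the remainder held its level includes the model of rank 32, on the Watson strand of chromosome 3. Its peak had 176 of 853 reads in the heat-stress library and 322 of 934 in the control library, shares of 20.6% (18.0 to 23.5) and 34.5% (31.4 to 37.6). The peak was at 12.7 RPM in the heat-stress library and 27.9 RPM in the control library, a ratio of 0.455 (0.376 to 0.548). Outside reads were at 48.9 RPM and 53.1 RPM, and the interval of their ratio, 0.824 to 1.03, includes 1. The interval of the peak ratio lies below 1, but the rule chose this model by its lower peak share, so this is a description only.

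Most of the 110 models rest on few reads. A median model had 181 reads in the heat-stress library and 138 in the control library, against 399 and 307 over all 8945 models. For 88 of the 110 the Newcombe interval of the difference lay wholly below 0 (3.78% of all models). For 22 it reached 0 or above (96.2% of all models). For 6 it lay wholly below -10 points (0.0671% of all models), namely ranks 1, 2, 3, 4, 7 and 29. The intervals cover counting error on reads rounded to whole numbers and treat the peak as a fixed place, whereas it was picked as the highest.

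Of these 6, ranks 4 and 7 resembled rank 1 in their parts. The model of rank 4, on the Watson strand of chromosome 9, had 129 of 336 reads in its peak in the heat-stress library and 100 of 159 in the control library. Its outside reads were at 14.9 RPM in the heat-stress library and 5.12 RPM in the control library, a ratio of 2.92 (2.18 to 3.97), while its peak was at 9.31 RPM and 8.67 RPM. Rank 7, a Watson-strand model of chromosome 2, had 138 of 309 reads in its peak in the heat-stress library and 97 of 150 in the control library, with outside reads at 12.3 RPM against 4.59 RPM. In both the difference in level lay mainly outside the peak.

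Only 6 of the 110 models had at least 500 reads in both libraries, against 30.5% of all models past the filters. The differences of these 6 ran from -14.4 to -10.2 points. The deepest of these in the control library, a Watson-strand model of chromosome 7 (rank 84), had 3262 of 4366 reads in its peak in the heat-stress library and 4140 of 4842 in the control library. Its shares were 74.7% (73.4 to 76.0) and 85.5% (84.5 to 86.5), a difference of -10.8 points (-12.4 to -9.16). The peak was at 235 RPM in the heat-stress library and 359 RPM in the control library, and outside reads were at 79.7 RPM against 60.9 RPM. Part of this model's reads was divided with other locations, as its counts are fractional. Ranks 29 and 32, described above, are 2 of the 6. The remaining 3 lie on chromosome 12 (ranks 74 and 103) and chromosome 9 (rank 107), and their ratios of RPM were 0.976, 0.951 and 1.03. Their levels were thus nearly equal in the libraries, while their peaks were at 0.767, 0.774 and 0.724 times the control RPM.

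**Figure D4:**
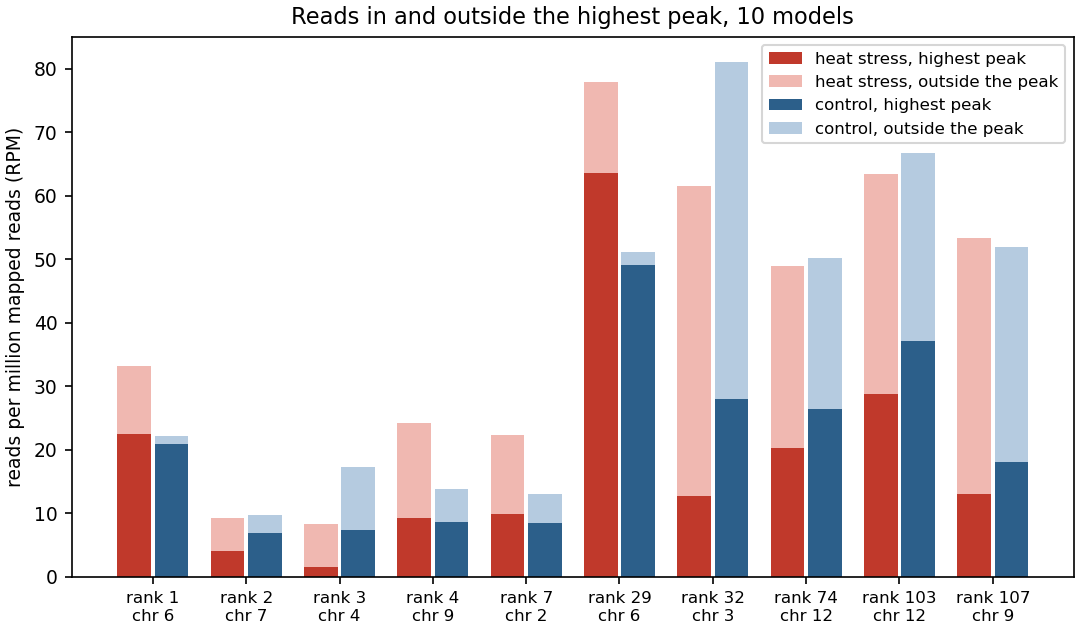
RPM in the highest peak (dark) and outside it (light) for 10 models, the heat-stress bar (red) left of the control bar (blue). Shown are the models whose interval lies wholly below -10 points or that have at least 500 reads in both libraries, without the chromosome 7 model of rank 84, whose 315 RPM in heat stress and 420 RPM in control would dwarf the rest. Ranks 1 and 29 have a taller light part in heat stress, rank 32 has a shorter dark part, and ranks 74, 103 and 107 have bars of nearly equal height with a different division.

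The 110 models had lower levels than most models past the filters, and their ratios between the libraries were centred close to those of all. The median level was 13.1 RPM in the heat-stress library and 11.96 RPM in the control library, against 28.8 RPM and 26.6 RPM over all models. On the scale log2((heat-stress RPM + 1)/(control RPM + 1)), the median was 0.10 for the 110 and 0.08 for all. At least 2-fold higher were 2 of the 110 (3.01% of all models) and at least 2-fold lower was 1 (1.5% of all models), and 66 of 110 had the higher RPM in the heat-stress library (58.5% of all models). The level ratio shares its reads with the rule, so nothing is read from these counts beyond their size. In 91 of the 110 (82.7%) the level was within 1.5-fold, against 82.4% of all models.

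The 2 higher models were Solyc03g113930.1 and Solyc02g077470.2. Solyc03g113930.1, on the Watson strand of chromosome 3, had 6505 reads in the heat-stress library and 223 in the control library, or 469 RPM (458 to 481) against 19.3 RPM (16.9 to 22.0). The ratio was 24.3 (95% conditional exact binomial interval 21.2 to 27.9), or 4.53 on the log2 scale with the pseudocount. Its peak and its remainder were both far higher in the heat-stress library. The peak was at 216 RPM against 11.2 RPM in the control library, 19.3 times as high (16.2 to 23.2), and outside reads were at 253 RPM against 8.15 RPM, 31.1 times as high (25.3 to 38.6). Its share was 46.1% in the heat-stress library and 57.8% in the control library, a difference of -11.8 points (-18.2 to -5.12), with the control share resting on 129 of 223 reads. Solyc02g077470.2, on the Crick strand of chromosome 2, was at 31.7 RPM in the heat-stress library and 12.6 RPM in the control library, a ratio of 2.52 (2.08 to 3.06). Its shares of 15.0% in the heat-stress library and 26.8% in the control library were among the lowest of the group, and its reads were partly divided with other locations.

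At the lower end stood Solyc03g121420.2 and Solyc04g074850.2. Solyc03g121420.2, on the Watson strand of chromosome 3, had 106 reads in the heat-stress library and 281 in the control library, or 7.65 RPM against 24.4 RPM, a ratio of 0.314 (0.249 to 0.394). It was lower in both parts, with the peak at 0.202 times the control RPM and the outside reads at 0.383 times. Solyc04g074850.2, the Crick-strand model of chromosome 4 with rank 3, was at 8.32 RPM in the heat-stress library and 17.3 RPM in the control library, a ratio of 0.482 (0.379 to 0.608). On the log2 scale with the pseudocount this was -0.97, just short of 2-fold. The peak accounted for most of the difference, with 21 reads in the heat-stress library and 85 in the control library, while outside reads numbered 94.3 and 114. Its share was 18.2% in the heat-stress library (11.7 to 26.6) and 42.7% in the control library (35.7 to 49.9).

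At the threshold itself the last 3 models inside had differences between -10.14 and -10.11 points, and the first 3 outside had differences between -9.94 and -9.85. The intervals of these 6 began between -20.6 and -16.9 points and ended between -3.48 and 0.634 points, so the line at 10 points ran inside the counting error of each.

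Identifier version and chromosome, which the rule did not use, were unevenly represented. The number at the end of an identifier is its version, and 59 of the 110 models (53.6%, interval 43.9 to 63.2) carried version 1, against 13.8% of all 8945. The 56 models with the opposite difference had nearly the same share of version 1, at 60.7% (46.8 to 73.5). Chromosomes 10 to 12 held 42 of the 110 (38.2%) and 19 of the 56 (33.9%), against 10.8% of all models. All 42 carried version 1, as did 772 of the 967 models past the filters on these chromosomes. Of version 1 models 5.44% (3.95 to 7.28) belonged to the group on chromosomes 10 to 12 and 3.68% (2.16 to 5.83) on chromosomes 1 to 9. Chromosome 11 alone held 20 of the 110, which is 7.02% of its 285 models (4.34 to 10.6), and chromosome 12 held 13, or 4.53% of 287 (2.43 to 7.62). Chromosomes 1 to 9 held 68, or 0.857% of their models. The opposite difference was also more frequent on chromosomes 11 and 12, with 8 models (2.81%, 1.22 to 5.46) and 6 models (2.09%, 0.771 to 4.49). On chromosomes 1 to 9 it was found in 37 models (0.466%). Version 1 models also had the more concentrated reads, with a median share of 43.6% in the heat-stress library and 44.7% in the control library, against 24.0% and 24.7% for version 2. Models were also set side by side in classes of the mean share of both libraries, which is built from the shares that the rule used. With a mean share of 30 to 50%, 2.95% of version 1 models (1.88 to 4.40) and 3.44% of version 2 models (2.22 to 5.08) belonged to the group, and with a mean share of 50% or more 9.84% (6.98 to 13.4) and 10.5% (3.96 to 21.5) did. For the opposite difference the values were 2.18% (1.28 to 3.47) and 1.29% (0.592 to 2.44) with a mean share of 30 to 50%, and 4.64% (2.73 to 7.33) and 12.3% (5.08 to 23.7) with 50% or more, again version 1 first. With a mean share of 20 to 30%, 0 of 82 version 1 models and 21 of 6168 version 2 models (0.340%) belonged to the group. For the opposite difference these numbers were 0 and 5. Under 20% 0 models of either version belonged to the group, and 1 version 2 model had the opposite difference. Since the classes rest on the shares that chose the models, nothing is concluded from them, and the part of version was not tested.

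Membership also went with the number of reads. Where the library with fewer reads had 100 to under 200, 86 of 2870 models (2.997%) belonged to the group. Where it had 200 to under 500 the share was 0.537% (18 of 3351), with 500 to under 1000 it was 0.356% (5 of 1406), and with 1000 or more it was 0.0759% (1 of 1318). The 56 models with the opposite difference followed the same order in the classes under 1000 reads, with 1.46%, 0.328% and 0.0711%, and 2 of them had 1000 reads or more.

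**Figure D5:**
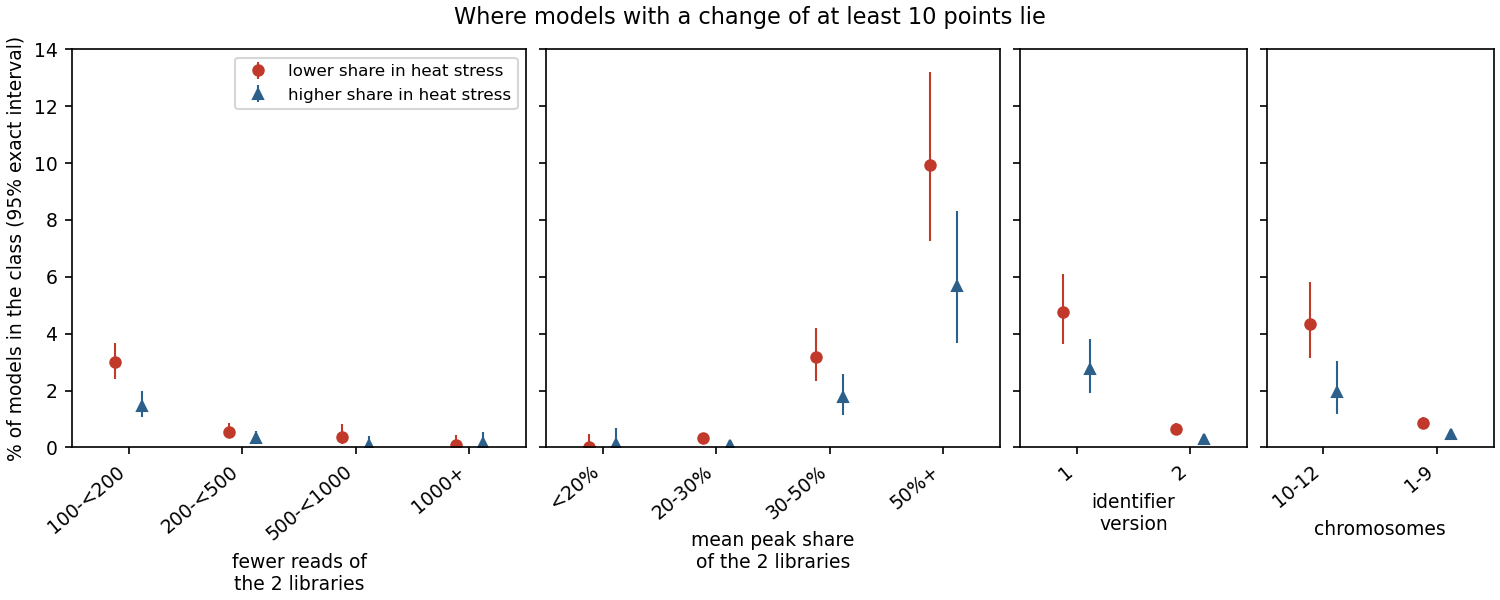
Percentage of models in each class (vertical axis, with 95% exact intervals) that had a share at least 10 points lower in heat stress (red circles) or at least 10 points higher (blue triangles), by the reads of the library with fewer reads, by mean share, by identifier version and by chromosome group (10 to 12 and 1 to 9). Both kinds were most frequent where reads were few, shares high and the version 1, and red lies above blue in every class shown except the class of 1000 or more reads and that of mean shares under 20%.

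The direction of the difference went with the number of reads. Shares were higher where reads were few: over all models the median share in the heat-stress library was 27.3% for models with 100 to under 200 reads and 23.9% for those with 1000 or more. In the control library these medians were 27.3% and 24.2%. The heat-stress library was sequenced more deeply, and 7148 of the 8945 models had more reads there, and among these 93 were in the group of lower shares against 32 with higher shares. Among the 1797 models without more reads in the heat-stress library the numbers were 17 and 24, and among 1554 models whose reads were within 1.1-fold of each other they were 23 and 18. The part of depth in the excess of 110 over 56 was not tested.

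Strand showed little difference. Of the 110 models 61 (55.5%, interval 45.7 to 64.9) lay on the Watson strand, against 51.2% of all models. Reads were divided with other locations in at least 1 library for 35 of the 110 (31.8%), against 29.4% of all, and 0 of the 110 had the same peak height as a model within 10 places in both libraries, against 0.548% of all.

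The models of the group did not lie next to each other. Identifiers number the models along each chromosome, and among all models listed in either library only 2 of the 110 had another of the group within 10 places (1.82%), against 7.64% of all models past the filters with a model of the group that near. These 2 lie on the Watson strand of chromosome 10, 6 places apart. The next listed model in the direction of transcription was on the opposite strand, tail to tail, for 56 of the 110 (50.9%, interval 41.2 to 60.6) and for 49.4% of all models. With 1 read per transcript, levels of neighbouring models can be set side by side without a term for length. The downstream model had more RPM than the model itself in the heat-stress library for 27 of the 110 (24.5%, interval 16.8 to 33.7) and for 21.8% of all.

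Downstream models differed in level between the libraries about as often as elsewhere. Heat-stress levels were 2-fold higher or more for 2 of 110 downstream models and 2.71% of those of all models, and at least 2-fold lower were 0 and 1.29%. Both higher ones lay tail to tail with a model of the group. On chromosome 1 (rank 51) the downstream model was at 72.2 RPM in the heat-stress library and 25.9 RPM in the control library, while outside reads of the model itself were at 7.07 RPM and 4.51 RPM. On chromosome 5 (rank 61) the downstream model was at 25.04 RPM in the heat-stress library and 10.5 RPM in the control library, with outside reads at 7.51 RPM and 5.72 RPM. Rank 1 had a tandem downstream model at 476 RPM in the heat-stress library and 409 RPM in the control library, far above its own 33.2 RPM and 22.2 RPM, whereas the downstream model of rank 29 was at 0.505 RPM and 0.260 RPM. How the authors' counting treated strand is not stated in the labels or headers, and the part of reads from neighbours in these shares was not tested.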

How the data were processed

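MACE libraries of heat-stressed and control tomato leaves, 1 each, were compared as the authors deposited them. FastQC is the only tool in the submitters' processing notes; the aligner, build, annotation, definition of a peak and strand setting are not stated in the labels or headers. Per the file headers the authors deposited an estimated count per model, not normalized and fractional for reads shared between locations, and the deposited count of all mapped reads is 1 number per file. The deposited column headed TPM equals reads per 1000000 mapped reads (RPM) within 3.42e-08 on every row. The deposited peak height is a signal in reads.

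From these, peak shares, RPM in and outside the peak, and log2 ratios with a pseudocount of 1 RPM were computed (Python 3.11.15, pandas 2.3.3, numpy 2.4.6, scipy 1.17.1), with 95% intervals for counting error only on reads rounded to whole numbers: Clopper-Pearson for shares, Newcombe for differences, exact Poisson for RPM, conditional binomial for ratios. The tolerance for whole-number reads was 0.000001. Depth was 13857252 mapped reads in the heat-stress and 11534512 in the control library. No p-value was computed. The calculations were tested on simulated data. By identifier only the 2 models with the highest and 2 with the lowest log2 ratio are named; others are given by rank, chromosome and strand, and those picked for depth, interval, outside reads or neighbours were chosen after their values were seen. Keyword gene lists and leaf markers were not run, because identifiers matched no description, and no sequence was matched. The members, lists and alternatives were chosen with earlier results of these data known.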

Additional observations from a re-analysis of the deposited data

How the results depend on the processing

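The number of models with a lower share depended on the filters. It was 110 of 8945 models as reported, and 309 of 11339 with a minimum of 50 reads. With a minimum of 200 it was 24 of 6075, with 500 it was 6 of 2724 and with 1000 it was 1 of 1318. The opposite direction had 56 as reported and 186, 14, 3 and 2 in the same order. A difference of at least 5, 15 or 20 points gave 757, 23 and 7 models. Intervals wholly beyond 10 points left 6, and models without more reads in heat stress held 17 against 24 in the opposite direction. Chosen after seeing the data were a relative fall of at least 30% of the control share (64 models, 39 of them among the 110, and 30 the other way), reads within 1.1-fold (23 and 18) and centring on the median difference (93 and 70). Whole-number reads (75), intervals beyond 0 (88), levels within 1.5-fold (91), peaks above reads kept (113) and leaving out equal peak heights (110) stayed within 1.5 times. The median difference was -12.7 points with 200 reads and -12.0 with whole-number reads. Of 2-fold higher models there were 2 as reported, 1 with 200 reads, 1 with whole-number reads, 12 at 1.5-fold and 1 at 4-fold. Of 2-fold lower models there was 1 as reported, 0 with 200 reads, 2 with a pseudocount of 0.1 RPM, 2 with the median ratio set to 1, 5 at 1.5-fold and 0 at 4-fold. At 2-fold in place of 1.5-fold 13 models had only more outside reads, 8 only a lower peak, 87 neither and 0 both; at a threshold under 1.5-fold 0 had neither and 19 both, and with the median ratio set to 1 2 had both. Within 1 or 5 places 0 models had a neighbour of the group. As the minimum of reads rose, the number of models with a lower share fell faster than the number of models tested. Settings that only leave models out, or ask for a larger difference, can only lower the count, by an amount not fixed in advance. The cause of these changes was not tested. For the level counts and the counts by part at other settings, the share over all models was not computed. No paired analysis was possible because there was 1 library a group. Depth limits most of the 110, which hold a median of 138 control reads, and the spread between plants is unknown.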

Other observations

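The filters kept some models out of view. There were 1232 models with at least 100 reads in the heat-stress library that had under 100 or were unlisted in the control library. The other way round there were 161, and the heat-stress library was the more deeply sequenced. A model with under 100 control reads could not enter the group, whatever its level in the heat-stress library. A further 11 models had 100 reads in both libraries but a peak above their reads in at least 1. Of these, 3 had a share at least 10 points lower in the heat-stress library and 3 at least 10 points higher.

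Over all 8945 models the share was lower in the heat-stress library for 5267 (58.9%). The median difference was -0.68 points among models with more reads in the heat-stress library, -0.23 points among the others and -0.27 points among models with reads within 1.1-fold of each other. Intervals wholly below 0 were found for 338 models and wholly above 0 for 144.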
